A study of Homo sapiens with 6 samples.

Results

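A total of 46 genes of DNA replication and mitosis were followed in HEK293A cells given a compound for 2 h. They were taken by symbol from 2 lists, 20 genes of the G1/S phase and 26 of the G2/M phase, among the 60676 Ensembl gene IDs of the deposited tables. Each of the 46 was found and passed the filter on low counts. RNA sequencing had been done on 6 libraries of HEK293A, an established human embryonic kidney line. Of these, 3 came from cells given the DMSO vehicle and 3 from cells given 20 nM VT01454, a small molecule given in the labels only as a code, each for 2 h. By the labels the groups share the cell line, the time and the preparation and differ in the treatment. The series title sets the work in the control of the Hippo pathway by phosphatidylinositol transfer proteins and phosphoinositides, and the comparison asks which transcripts differed after the compound. Whether the 3 libraries of a group stem from separate cultures is not said, and each p-value reflects only how far these libraries spread, which may be technical.

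In late G1, cyclin E and its kinase inactivate the retinoblastoma protein RB, which frees E2F transcription factors to switch on the genes of DNA synthesis: the MCM helicase, its loaders CDC6 and CDT1, the sliding clamp PCNA and the enzymes that make nucleotides. The genes of mitosis are held down early in the cycle by the DREAM complex and later switched on by its MuvB core together with MYBL2 and FOXM1. They include cyclins A and B, the Aurora kinases, spindle motors and checkpoint kinases. HEK293 cells carry adenoviral early genes whose products bind RB and p53, so this control is not that of an untransformed cell. The level of such transcripts in an unsynchronised culture follows the share of cells in each phase. In bulk RNA, fewer cells in a phase and less of a transcript per cell cannot be told apart.

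The promoter sequences of the members carried the letters by which the phases are known to be told apart. They were taken from RefSeq (GRCh38.p14, 250 bases before to 50 after the start) and matched for 38 of the 46 members, using the start listed first for each gene. MCM4, MCM5, CCNE2, AURKA, BIRC5, TPX2, TTK and UBE2C had no entry. The 3 motifs were searched on both strands. They were E2F (TTGGCGC or TTCCCGC), the cell cycle homology region or CHR (TTTGAA or TTCGAA), which DREAM and MuvB bind, and the CCAAT box (CCAAT), which the factor NF-Y binds. E2F letters stood in 12 of 17 G1/S promoters (70.6%) and in 3 of 21 G2/M promoters (14.3%), against 14.8% of tested genes and 9.33% of all genes in the promoter table. CHR letters stood in 2 of 17 G1/S promoters (11.8%) and in 12 of 21 G2/M promoters (57.1%), against 11.2% of tested genes and 16.6% of all. The CCAAT box stood in 58.8% of G1/S and 81.0% of G2/M promoters, against 36.8% of tested genes and 35.7% of all. A match is a description of the letters and not a measured binding site.

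The 200 bases before the start are shown for PCNA (chr20:5126623-5126822, minus strand) and E2F1 (chr20:33686386-33686585, minus strand) as G1/S members, and for KIF11 (chr10:92592930-92593129, plus strand) and MKI67 (chr10:128126424-128126623, minus strand) as G2/M members. E2F3 (chr6:20401679-20401878, plus strand) is shown with them because it had the smallest p of the further E2F genes described below. Each is read 5′ to 3′ along the gene, in GRCh38.p14, and capitals mark the E2F, CHR and CCAAT letters on either strand.
PCNA: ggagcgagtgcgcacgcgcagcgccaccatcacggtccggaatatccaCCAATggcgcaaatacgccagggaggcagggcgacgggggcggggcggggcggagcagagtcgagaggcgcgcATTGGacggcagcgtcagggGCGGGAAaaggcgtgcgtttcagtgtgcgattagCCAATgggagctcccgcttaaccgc
E2F1: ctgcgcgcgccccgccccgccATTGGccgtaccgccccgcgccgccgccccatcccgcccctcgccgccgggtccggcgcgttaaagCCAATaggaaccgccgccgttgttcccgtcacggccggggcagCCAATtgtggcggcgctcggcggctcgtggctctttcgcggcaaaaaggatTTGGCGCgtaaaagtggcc
KIF11: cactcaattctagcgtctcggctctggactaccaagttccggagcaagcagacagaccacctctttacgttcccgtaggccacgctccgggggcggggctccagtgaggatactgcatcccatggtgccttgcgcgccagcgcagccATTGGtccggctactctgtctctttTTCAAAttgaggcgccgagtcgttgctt
MKI67: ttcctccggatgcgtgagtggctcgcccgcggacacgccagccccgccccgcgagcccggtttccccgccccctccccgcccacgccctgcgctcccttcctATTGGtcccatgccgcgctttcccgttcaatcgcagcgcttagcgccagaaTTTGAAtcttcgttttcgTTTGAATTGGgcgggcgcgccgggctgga
E2F3: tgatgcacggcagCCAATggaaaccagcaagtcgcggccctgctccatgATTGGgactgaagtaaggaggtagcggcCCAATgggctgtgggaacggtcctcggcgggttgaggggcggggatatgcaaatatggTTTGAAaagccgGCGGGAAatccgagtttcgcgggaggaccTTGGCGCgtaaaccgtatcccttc

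In these windows PCNA held an E2F match starting at −59 from the start and E2F1 one at −19. KIF11 held CHR letters at −28 behind an inverted CCAAT box at −53. MKI67 held CHR letters at −47 and at −29, the latter sharing its last base with an inverted CCAAT box at −24. E2F3 held E2F letters at −53 and −24 as well as CHR letters at −65. Among the members, 10 G1/S promoters held E2F letters without CHR letters and 11 G2/M promoters held CHR letters without E2F letters. MCM6 and RRM1 in G1/S and CDK1 in G2/M held both. Neither was found in RRM2, MCM2, SLBP, FEN1 and CCNE1, nor in NEK2, CENPE, CCNA2, CCNB1, KIF20A, PTTG1 and AURKB.

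Libraries held 19126039 to 28880374 counts, and values are given as CPM, counts scaled to a common library size with TMM factors. Of the markers of the line, KRT8 stood at 895 to 1032, NEFL at 647 to 709.9, VIM at 272 to 325, KRT18 at 255 to 309 and NEFM at 0.140 to 6.58 CPM. Of the kidney lineage genes, SIX2 stood at 43.1 to 58.1, GATA3 at 28.3 to 35.5 and WT1 at 19.8 to 24.7 CPM, while PAX2, PAX8 and LHX1 were below 1 CPM in all 6 libraries. The leukocyte genes PTPRC and CD3E had no count in any library, which allows up to 0.104 to 0.157 CPM as counting error only. The vehicle libraries differed among themselves more than the compound libraries did: the chi-square per degree of freedom over genes ran from 7.77 to 19.6 between vehicle libraries, highest for libraries 2 and 3, and from 2.02 to 2.77 between compound libraries. Against the compound libraries it was 15.9 to 17.7 for vehicle library 2, 7.98 to 8.36 for vehicle library 1 and 7.54 to 8.51 for vehicle library 3. Within the vehicle group, libraries 2 and 3 stood apart in opposite directions for many members. Every member called when 1 of them was left out is named. Over the whole table of 15577 tested genes, edgeR called 294 at 0.05, 198 higher and 96 lower with the compound. It called 93 genes (0.584%) without vehicle library 1, 414 (2.6%) without vehicle library 2 and 1806 (11.4%) without vehicle library 3. It called 136 (0.854%), 109 (0.683%) and 108 (0.676%) without compound libraries 1, 2 and 3.

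All 46 members were expressed in every library. Levels were compared between genes as CPM per kilobase of the principal transcript, averaged over the 6 libraries. Among G1/S genes, the sliding clamp gene PCNA was highest at 301 and the helicase gene MCM7 followed at 222 CPM per kilobase. The cyclin E2 gene CCNE2 was lowest at 4.70, a 64.0-fold span. The 6 MCM genes, whose products form a helicase with 1 copy of each, were not at equal levels: MCM7 at 222, MCM4 at 145, MCM3 at 142, MCM2 at 83.3, MCM6 at 77.7 and MCM5 at 64.3 CPM per kilobase. MCM4 and MCM3 overlapped across libraries, as did MCM2 and MCM6, and MCM7 lay above the other 5 in every library. Of the 19 neighbouring pairs in the order of G1/S levels, 7 overlapped in their library ranges.

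G2/M levels spanned less, 11.6-fold, and 20 of 25 neighbouring pairs overlapped. The cyclin B1 gene CCNB1 was highest at 168, then CDC20, the activator of the anaphase-promoting complex, at 153 and the topoisomerase gene TOP2A at 145 CPM per kilobase. These neighbours overlapped, so their order is not firm. CDC25C, the phosphatase gene that acts at mitotic entry, was lowest at 14.5, and the kinesin gene CENPE stood next at 18.6 with an overlapping range. MKI67, the proliferation antigen, stood at 48.5 CPM per kilobase and ranked 16 of 26 although its count per gene was high, since its transcript is 12678 bases long.

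**Figure D1:**
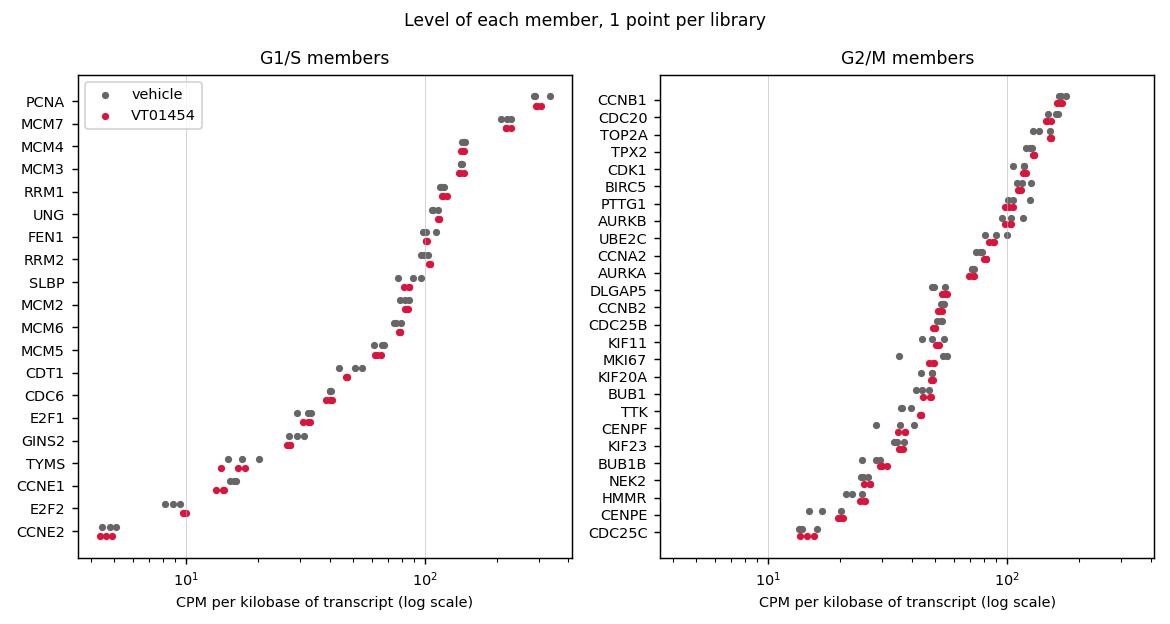
Level of each member in CPM per kilobase of transcript (log scale), 1 point per library, grey for vehicle and red for VT01454, ordered by mean level within G1/S (left) and G2/M (right). PCNA at 301 and CCNE2 at 4.70 bound the G1/S genes, CCNB1 at 168 and CDC25C at 14.5 the G2/M genes, and the 2 colours lie close together at nearly every gene.

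None of the 46 members was called after 2 h with the compound, against 1.89% of all tested genes (edgeR quasi-likelihood test, adjusted p below 0.05). At an unadjusted p below 0.05 there were 5 members (10.9%), against 14.4% of tested genes: E2F2 and CCNE1 of G1/S, and TTK, CENPE and TOP2A of G2/M. Limma-voom also called 0 members, against 1.78% of all genes. DESeq2 called 1, TTK, against 2.74%, and TTK was the only member at an adjusted p below 0.1 with edgeR, against 2.99%. All compound libraries lay above all vehicle libraries for 7 members (15.2%, against 11.3% of tested genes) and below them for 2 (4.35%, against 9.84%). The other 37 of 46 overlapped, as did 12283 of 15577 tested genes. For 17 members the compound libraries lay wholly within the range of the vehicle libraries (37.0%, against 30.6% of tested genes).

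Log2 fold changes of the members, compound over vehicle, ran from −0.17 to 0.22, with a median size of 0.056 against 0.113 over all tested genes. The median SE was 0.061 for the members and 0.097 for all tested genes, so these sizes are not compared at like precision. For 35 of 46 the 95% interval lay within 1.2-fold in either direction, as it did for 5052 of 15577 tested genes, whose median SE was larger. The widest interval was that of MKI67, −0.45 to 0.45, which leaves a change of either sign possible. A value that misses the threshold therefore does not show that a level was equal in the groups, and the intervals state how far it could have moved.

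**Figure D2:**
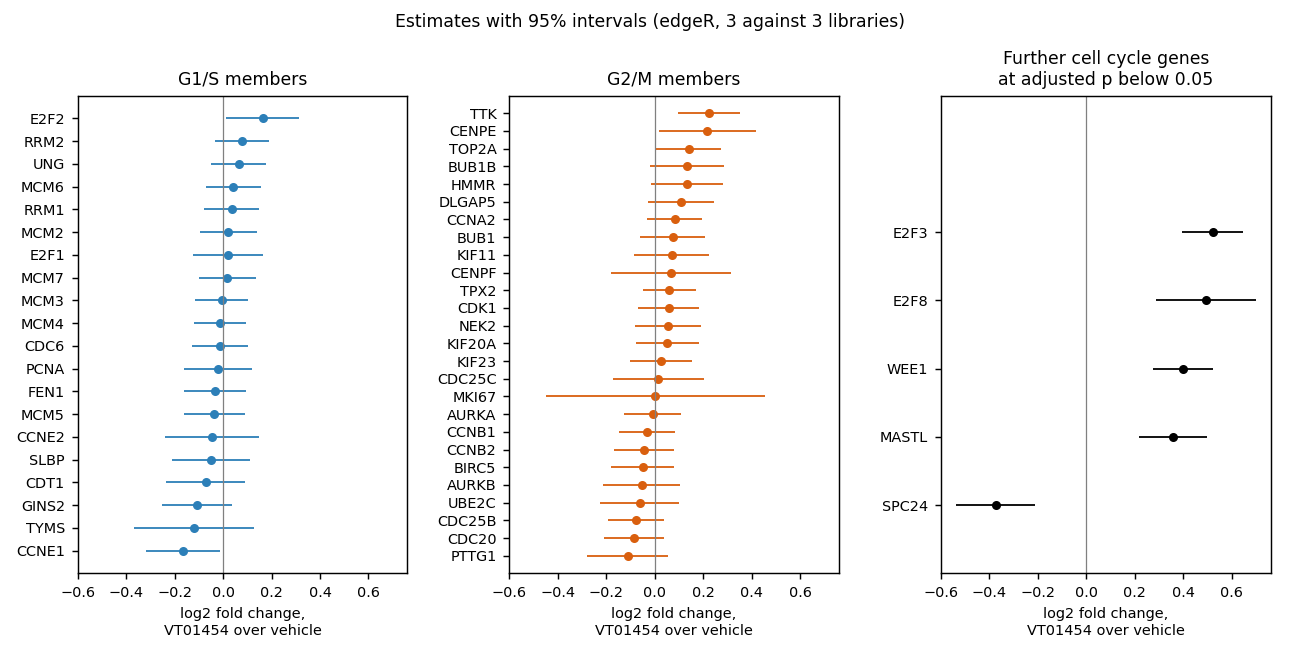
Log2 fold change of compound over vehicle with its 95% interval (edgeR, 3 against 3 libraries) for the 20 G1/S members, the 26 G2/M members and the 5 further cell cycle genes at an adjusted p below 0.05. E2F3 at 0.52 and SPC24 at −0.37 lie outside the range of every member, whose estimates run from −0.17 to 0.22.

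The G1/S genes lay on both sides of 0, with 8 of 20 above and 12 below and a median log2 fold change of −0.013, against −0.0073 over all tested genes. The MCM genes, which encode the replicative helicase, lay close to vehicle levels. MCM3 stood at 457, 457 and 459 CPM in the vehicle libraries and 470.0, 449 and 448 with the compound, and MCM7 at 654, 680.1 and 619.9 CPM against 678, 650.2 and 649. Both genes overlapped between the groups. Over the 6 MCM genes the log2 fold change ran from −0.037 for MCM5 to 0.042 for MCM6, with intervals that stayed between −0.16 and 0.16, and the signs of MCM2 and MCM7 turned when libraries were scaled by their totals alone.

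The genes that load the helicase onto origins and start synthesis gave small differences too. CDC6, a loader, stood at 193, 193 and 194 CPM with vehicle and 193, 197 and 185 with the compound, a log2 fold change of −0.013 ± 0.053 (SE). The vehicle libraries of CDC6 were nearly equal, and the groups overlapped. CDT1, its partner in loading, stood at 166, 176 and 141 CPM with vehicle against 154, 152 and 154 with the compound, with the compound libraries inside the vehicle range and a log2 fold change of −0.072 ± 0.075. Without vehicle library 3, the lowest of the 6, CDT1 was called lower at −0.16 (adjusted p = 0.048). GINS2, a subunit of the active helicase, stood at 72.2, 83.3 and 77.9 CPM with vehicle and 73.2, 72.6 and 70.5 with the compound. Its groups overlapped through vehicle library 1 alone, and the log2 fold change was −0.11 ± 0.066 (95% interval −0.25 to 0.036, adjusted p = 0.485).

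Cyclin E and E2F genes held the largest differences of the G1/S list, in opposite directions. CCNE1, a cyclin that drives entry into S phase, stood at 32.6, 33.0 and 31.2 CPM with vehicle and 29.6, 29.3 and 27.3 with the compound. All 3 compound libraries were below all 3 vehicle libraries, and the log2 fold change was −0.17 ± 0.071 (adjusted p = 0.311). CCNE2, the related cyclin and the least abundant member, stood at 16.9, 14.8 and 16.0 CPM with vehicle against 15.4, 16.3 and 14.6 with the compound, with overlapping groups and −0.047 ± 0.090. E2F2, an activating E2F, stood at 45.7, 42.4 and 49.0 CPM with vehicle and 50.6, 52.0 and 51.1 with the compound. Its compound libraries were all above the vehicle libraries, and the log2 fold change was 0.16 ± 0.070 (adjusted p = 0.311). Without vehicle library 3, E2F2 was called higher at 0.22 (adjusted p = 0.042). E2F1, the best known activating E2F, stood at 81.0, 83.7 and 73.2 CPM with vehicle against 80.9, 82.8 and 77.5 with the compound, with the compound libraries within the vehicle range and a log2 fold change of 0.021 ± 0.067.

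Nucleotide synthesis and DNA repair genes differed little. RRM2, the regulated subunit of ribonucleotide reductase, stood at 331, 353 and 341 CPM with vehicle and 358, 362 and 362 with the compound. Its groups did not overlap, yet the difference was small, 0.078 ± 0.052 (adjusted p = 0.517), and 0.035 ± 0.052 for the large subunit RRM1. UNG, a uracil-DNA glycosylase, also had all compound libraries above the vehicle libraries, at 224, 235 and 223 CPM with vehicle against 238, 236 and 237 with the compound, a log2 fold change of 0.064 ± 0.052. TYMS, which makes thymidylate, had the widest interval of the G1/S genes. It stood at 28.4, 33.8 and 25.0 CPM with vehicle and 23.2, 29.4 and 27.4 with the compound. Its log2 fold change was −0.12 ± 0.11 (95% interval −0.37 to 0.13), and its exons overlap ENOSF1 and TYMSOS on the opposite strand, so its counts are uncertain where the counting did not use strand.

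PCNA, the sliding clamp of the polymerases, stood at 392, 453 and 390.1 CPM with vehicle and 418, 401 and 398 with the compound. Vehicle library 2 was the highest of the 6, the compound libraries lay within the vehicle range, and the log2 fold change was −0.022 ± 0.065. The flap nuclease gene FEN1 and the histone mRNA binding gene SLBP had the same shape, with vehicle library 2 highest, and stood at −0.034 ± 0.059 and −0.050 ± 0.074.

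The G2/M genes were more often above 0, with 17 of 26 above (65.4%, against 48.4% of all tested genes) and 9 below and a median log2 fold change of 0.053, against −0.0073 over all tested genes. The kinase gene TTK (chr6:80003887-80042527 in GENCODE 29 on hg38), which encodes the spindle checkpoint kinase MPS1, had the largest estimate and the smallest p of all 46 members. It stood at 109, 108 and 119 CPM with vehicle and 129.8, 132 and 131 with the compound. The 3 compound libraries were nearly equal and all above the vehicle libraries, and the log2 fold change was 0.22 ± 0.059 (95% interval 0.095 to 0.35, adjusted p = 0.0909, edgeR). TTK passed the threshold with DESeq2 (adjusted p = 0.0395), with no count filter (0.0334), with an offset for transcript length (0.0123) and without vehicle library 3 (0.00434). Its adjusted p ran up to 0.366, without compound library 2.

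BUB1B and BUB1, other spindle checkpoint genes among the members, had estimates above 0 and did not pass. BUB1B, which encodes the checkpoint protein BUBR1, stood at 105, 92.2 and 109.8 CPM with vehicle and 116, 109 and 112 with the compound, with a small overlap through vehicle library 3 and a log2 fold change of 0.13 ± 0.070 (adjusted p = 0.414). BUB1, a kinase of the same checkpoint, stood at 155, 146 and 165 CPM with vehicle against 166, 156 and 169 with the compound and 0.074 ± 0.062. Beyond the members, the checkpoint genes BUB3 and MAD2L1 had estimates below 0, with BUB3 at −0.069 ± 0.053 and all its compound libraries below the vehicle libraries, and MAD2L1 at −0.0048 ± 0.056. CDC20, which the checkpoint restrains, had an estimate below 0, at 286, 291 and 263 CPM with vehicle against 272, 258 and 261 with the compound. For CDC20 the groups overlapped and the log2 fold change was −0.085 ± 0.058 (95% interval −0.21 to 0.039). PTTG1, the securin gene whose product is destroyed at anaphase, had the lowest G2/M estimate. It stood at 113, 133 and 107 CPM with vehicle and 113, 105 and 109 with the compound, with vehicle library 2 far above the other 5, and −0.11 ± 0.078. UBE2C, the ubiquitin-conjugating enzyme of the anaphase-promoting complex, stood at −0.061 ± 0.075.

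Kinetochore and chromosome genes with long transcripts were among those where the vehicle libraries differed most. CENPE, a kinetochore motor, stood at 144, 127 and 174 CPM with vehicle and 169, 177 and 172 with the compound. Vehicle library 3 lay among the compound libraries and vehicle library 2 far below them, so the groups overlapped, and the log2 fold change was 0.22 ± 0.092 (adjusted p = 0.308). With no count filter, where 2.29% of all genes were called, CENPE and TTK were the 2 members called (adjusted p = 0.0358 for CENPE), and without vehicle library 3 it was called at 0.35 (adjusted p = 0.00242). CENPF, a kinetochore protein, stood at 368, 292 and 419 CPM with vehicle against 361, 384 and 386 with the compound, with the compound libraries inside the vehicle range and 0.066 ± 0.11. MKI67 had the widest spread, 686, 445 and 709 CPM with vehicle and 599, 625 and 621 with the compound. The compound libraries lay between vehicle library 2 and the other 2, and the log2 fold change was 0.0023 ± 0.18. Without vehicle library 2, MKI67 was called lower at −0.18 (adjusted p = 0.0155), the only member called in that setting, in which 2.6% of all genes were called.

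TOP2A, the topoisomerase that untangles sister chromatids, stood at 780.0, 738 and 871 CPM with vehicle and 875, 882 and 876 with the compound. The compound libraries were all above the vehicle libraries, though vehicle library 3 came within a few CPM, and the log2 fold change was 0.14 ± 0.062 (adjusted p = 0.328). HMMR, a spindle microtubule protein, stood at 63.2, 67.2 and 73.7 CPM with vehicle against 72.7, 75.3 and 76.0 with the compound, with a slight overlap and 0.13 ± 0.069 (adjusted p = 0.401). DLGAP5, which bundles spindle microtubules, stood at 144, 147 and 163 CPM with vehicle against 159, 163 and 167 with the compound, again overlapping through vehicle library 3, and 0.11 ± 0.062 (adjusted p = 0.455). Without vehicle library 3, TOP2A, HMMR and DLGAP5 were all called higher, at 0.21, 0.19 and 0.17. The setting without that library called 7 members, CDT1 lower and E2F2, CENPE, DLGAP5, HMMR, TOP2A and TTK higher (15.2% of 46), and 11.4% of all tested genes. Without vehicle library 2, none of these 7 was called.

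Among the drivers of mitotic entry, the cyclin B1 gene CCNB1 stood at 364, 383 and 359 CPM with vehicle and 369, 361 and 352 with the compound, with overlapping groups and a log2 fold change of −0.031 ± 0.053. CCNB2, the related cyclin, stood at −0.045 ± 0.057, and their kinase CDK1 at 0.057 ± 0.059. CCNA2, the cyclin of S phase and G2, stood at 207, 216 and 219.8 CPM with vehicle against 228, 224 and 228 with the compound. Its compound libraries were all above the vehicle libraries by a small margin, 0.082 ± 0.053 (adjusted p = 0.509). The phosphatase genes that activate CDK1 did not pass: CDC25B stood at 192, 191 and 183 CPM with vehicle against 180.1, 176 and 179.5 with the compound, all compound libraries below, with −0.078 ± 0.053. CDC25C stood at 28.5, 34.1 and 29.4 CPM with vehicle against 33.0, 30.9 and 28.9 with the compound, overlapping, with 0.015 ± 0.086 (95% interval −0.17 to 0.20).

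The Aurora kinases, survivin and NEK2 act in spindle assembly and chromosome segregation, and their genes did not pass. The Aurora kinase genes AURKA and AURKB stood at −0.0091 ± 0.054 and −0.053 ± 0.073, the survivin gene BIRC5 at −0.049 ± 0.060 and the centrosomal kinase gene NEK2 at 0.055 ± 0.064. CDCA8, a passenger complex gene beyond the members, stood at 103, 99.0 and 101 CPM with vehicle and 85.8, 91.0 and 90.4 with the compound. All its compound libraries were below, with −0.18 ± 0.058 (adjusted p = 0.158, edgeR), and it was called lower without vehicle library 3. INCENP, another gene of that complex, had an estimate above 0, at 0.049 ± 0.067, with the compound libraries within the vehicle range. The spindle motor genes KIF11, KIF20A and KIF23 stood within 1 SE of 0, KIF11 at 0.070 ± 0.071, KIF20A at 0.052 ± 0.060 and KIF23 at 0.026 ± 0.059. TPX2, which activates Aurora A on the spindle, stood at 436, 421 and 444 CPM with vehicle and 452, 455 and 449 with the compound, without overlap but at only 0.059 ± 0.051. Set beside their promoters, the 15 members with E2F letters had a median log2 fold change of 0.015 with 8 above 0. The 14 with CHR letters had a median of 0.062 with 12 above 0, against 48.4% of all tested genes above 0. The other spindle, kinetochore and cytokinesis genes, with CHR letters in 79.5% of promoters, had a median of 0.032 with 27 of 47 above 0. The estimates also moved with transcript length (Spearman's rho of 0.52 over the members), which was not matched here. A link to the letters was not tested.

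The difference between the phases with the compound was within the range of the vehicle libraries. The median G2/M log2 fold change exceeded the median of G1/S by 0.067, against an SD of 0.053 between replicate libraries for that difference. Centred on each gene's mean over the 6 libraries, the G2/M mean minus the G1/S mean was −0.037, −0.099 and 0.057 in vehicle libraries 1, 2 and 3. With the compound it was 0.029, 0.014 and 0.036, all inside the vehicle range. Vehicle library 2 was thus high in G1/S and low in G2/M genes, and vehicle library 3 the reverse. Without vehicle library 2 the difference of medians was 0.0016, and without vehicle library 3 it was 0.10.

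**Figure D3:**
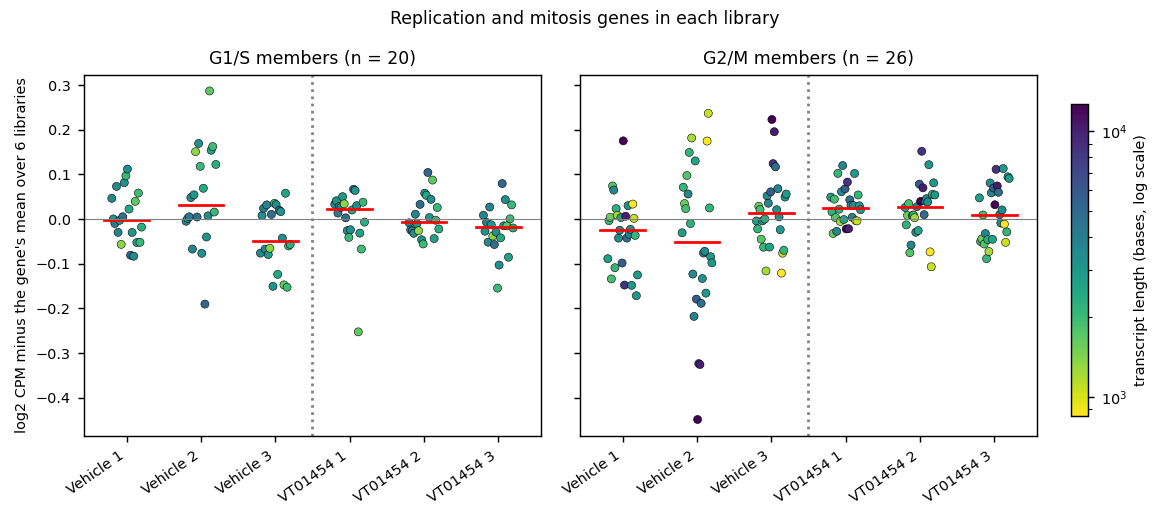
Log2 CPM of each member minus its mean over the 6 libraries, with 1 point per gene coloured by transcript length (log scale) and the median as a red line, for G1/S (left) and G2/M (right). Vehicle libraries 2 and 3 spread in opposite directions, with the longest transcripts at the bottom of vehicle library 2 and the top of vehicle library 3 in G2/M, while the compound libraries cluster near 0.

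The spread of the vehicle libraries followed transcript length. Across the 46 members, Spearman's rho between a gene's deviation and its transcript length was −0.77 in vehicle library 2 and 0.61 in vehicle library 3, against −0.10 in vehicle library 1 and 0.27 to 0.50 in the compound libraries. Across all tested genes the values were −0.46 in vehicle library 2 and 0.24 in vehicle library 3. They were −0.088 in vehicle library 1 and 0.13 to 0.21 in the compound libraries, so vehicle library 3 lay near the compound libraries. Each deviation is taken from the mean over the 6 libraries, so the values of the libraries depend on each other. These are descriptions over genes that share libraries, not independent replicates. The log2 ratio of vehicle library 3 to vehicle library 2 was larger in size than the compound's log2 fold change for 37 of 46 members (80.4%, against 69.3% of tested genes). The SD of the vehicle libraries exceeded that of the compound libraries for 38 of 46 members (82.6%, against 73.1%).

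The compound's log2 fold change moved with length as well, with a rho of 0.52 over the members and 0.28 over all tested genes. In the 15 shortest members (850 to 2248 bases) the median log2 fold change was −0.045 with 4 above 0. The 15 of middle length (2296 to 3431 bases) had a median of 0.021 with 9 above 0, and the 16 longest (3497 to 12678 bases) a median of 0.051 with 12 above 0. Vehicle library 3 was above vehicle library 2 in 1, 8 and 13 members of these classes. When a smooth trend on length was taken out of each library, an alternative added after the data were seen, the medians became 0.013, 0.043 and 0.022. With that offset 1 member was called, TTK, against 4.07% of all genes.

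**Figure D4:**
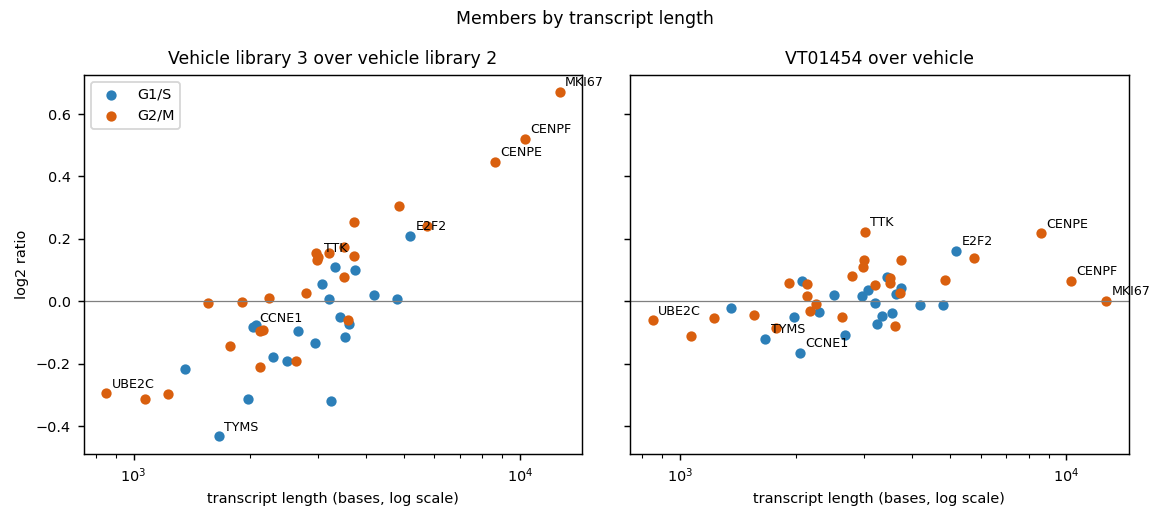
Log2 ratio of each member against transcript length (bases, log scale), for vehicle library 3 over vehicle library 2 (left) and for the compound over vehicle (right), blue for G1/S and orange for G2/M. The left panel climbs from below 0 for UBE2C to 0.67 for MKI67, and in the right panel TTK lies highest at 0.22 with a transcript of middle length.

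Further cell cycle genes were read from 5 lists of the same pathway, 164 genes of which 162 were tested. Of these, 4 rose and 1 fell (edgeR, adjusted p below 0.05), against 1.27% and 0.616% of all tested genes. The 5 calls became 36 of 162 (22.2%) without vehicle library 3, where 11.4% of all tested genes were called. Without vehicle library 2 they were 6 of 162 (3.7%), where 2.6% of all genes were called. They became 2 of 162 (1.23%) without vehicle library 1 or any 1 compound library, where 0.584% to 0.854% of all genes were called. In the list of E2F, RB and cell cycle regulators 3 of 31 rose and none fell, and without vehicle library 3 it held 6 higher (19.4%, against 7.36% of all tested genes called higher in that setting). E2F3 (chr6:20401906-20493715, GENCODE 29), an activating E2F like E2F1 and E2F2, stood at 123, 122 and 133 CPM with vehicle and 179, 180.4 and 183 with the compound. Every compound library was far above every vehicle library, and the log2 fold change was 0.52 ± 0.057 (adjusted p = 2.91e-04). WEE1 (chr11:9573681-9593457), the kinase that holds CDK1 inactive before mitosis, stood at 91.0, 89.8 and 96.2 CPM with vehicle against 123, 122 and 121 with the compound. It rose by 0.40 ± 0.057 (adjusted p = 0.00234), while its target CDK1 stood at 0.057 ± 0.059. E2F8 (chr11:19224063-19241620), a repressive E2F that is itself an E2F target, stood at 32.0, 28.0 and 37.3 CPM with vehicle against 48.4, 43.3 and 45.7 with the compound, without overlap, and rose by 0.49 ± 0.095 (adjusted p = 0.0189).

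The other E2F genes did not pass. E2F4, a repressor that works with RB relatives, stood at −0.078 ± 0.061, E2F5 at 0.088 ± 0.081, E2F6 at 0.050 ± 0.065 and E2F7, the partner of E2F8, at 0.11 ± 0.086. Among the estimates of the 8 E2F genes, counting E2F1 and E2F2, those of E2F3 and E2F8 stood apart and the other 6 lay between −0.078 and 0.16. The difference between the E2F genes was not tested. E2F3 and WEE1 passed in every setting run, whereas E2F8 lost its call without vehicle library 1 or without any 1 of the compound libraries (adjusted p up to 0.179).

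Of 47 tested spindle, kinetochore and cytokinesis genes beyond the members, 1 rose and 1 fell. MASTL (chr10:27154824-27186924), the Greatwall kinase that keeps the phosphatase PP2A off during mitosis, stood at 69.5, 62.4 and 70.0 CPM with vehicle and 87.1, 87.9 and 84.0 with the compound. Its groups did not overlap and it rose by 0.36 ± 0.065 (adjusted p = 0.0124). SPC24 (chr19:11131520-11155808), a subunit of the kinetochore complex NDC80, stood at 41.6, 47.6 and 42.9 CPM with vehicle against 33.3, 32.5 and 36.0 with the compound. All its compound libraries were lower, and the log2 fold change was −0.37 ± 0.076 (adjusted p = 0.0245). Exons of MASTL overlap YME1L1 on the opposite strand, so its counts are uncertain. MASTL and SPC24 lost their calls without vehicle library 1 or without any 1 of the compound libraries, with adjusted p up to 0.111 for MASTL and 0.196 for SPC24. The list held, without vehicle library 3, 10 higher and 2 lower (25.5%), against 7.36% and 4.0% of all tested genes.

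**Figure D5:**
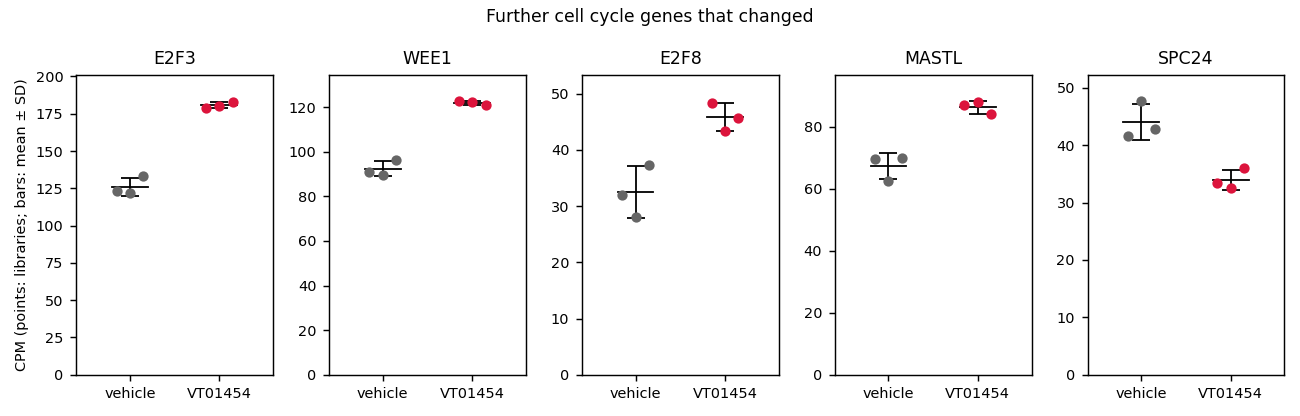
CPM in each library (points) with the mean ± SD (bars, n = 3 libraries each) for the 5 further cell cycle genes at an adjusted p below 0.05, each on an axis that starts at 0. Compound libraries lie above vehicle libraries for E2F3, WEE1, E2F8 and MASTL and below them for SPC24, with no overlap in any of the 5.

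The remaining 3 lists held no called gene with edgeR on the filtered table, limma-voom or DESeq2. Of 50 other replication genes, 3 had an unadjusted p below 0.05, against 14.4% of all tested genes, and the median log2 fold change was −0.0096. The polymerase alpha subunit gene POLA2 stood at 14.7, 18.0 and 13.2 CPM with vehicle and 12.1, 11.4 and 12.4 with the compound (−0.34 ± 0.11, adjusted p = 0.187). TOPBP1, a replication and checkpoint scaffold, stood at 169, 163 and 196 CPM with vehicle against 203, 202 and 200.2 with the compound (0.19 ± 0.069, adjusted p = 0.228). Neither gene's groups overlapped. In the setting without vehicle library 3, 4 replication genes were called higher and 1 lower, or 10% of 50, near the 11.4% of all genes called in that setting.

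The condensin and cohesin genes, which shape and hold chromosomes, held no called gene, while 17 of 18 stood above 0, against 48.4% of all tested genes. The median log2 fold change was 0.12, against −0.0073, and 7 had an unadjusted p below 0.05 (38.9%, against 14.4%). NCAPG, a condensin subunit, stood at 161, 151 and 177 CPM with vehicle and 186, 191 and 190.4 with the compound (0.22 ± 0.065, adjusted p = 0.137). WAPL, which releases cohesin, stood at 198, 192 and 222 CPM with vehicle against 233, 230.0 and 235 with the compound (0.19 ± 0.062, adjusted p = 0.178). For both, all compound libraries were above the vehicle libraries. The genes of this list are long, with a median transcript of 5510 bases, and 17 of 18 were higher in vehicle library 3 than in vehicle library 2. With the length offset 1 of the 18, NCAPG, was called higher, and with no count filter 2, NCAPG and NIPBL (11.1%, against 2.29% of all genes). Without vehicle library 3, 10 of the 18 were called higher (55.6%), against 7.36% of all tested genes. Without vehicle library 2, 0 of the 18 were called, against 2.6% of all genes. Centred on each gene's mean over the 6 libraries, the list's mean was −0.061, −0.17 and 0.051 in vehicle libraries 1, 2 and 3. With the compound it was 0.042, 0.071 and 0.070, so vehicle library 3 lay near the compound libraries and vehicle library 2 far below.

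Of 16 genes of the anaphase-promoting complex, the ubiquitin ligase that ends mitosis, none had an unadjusted p below 0.05 and 5 stood above 0 (31.2%, against 48.4% of all tested genes), with a median of −0.046. Without vehicle library 3, 1 was called higher and 2 lower (18.8% of 16, against 11.4% of all genes). ANAPC1, its largest subunit, stood at 127, 107 and 142 CPM with vehicle and 137, 147 and 142 with the compound (0.18 ± 0.087, adjusted p = 0.373). ANAPC13, a small subunit, stood at 45.6, 57.9 and 50.2 CPM with vehicle against 46.1, 48.0 and 43.5 with the compound (−0.16 ± 0.086, adjusted p = 0.427). Both overlapped between the groups. Over the 16 genes, Spearman's rho between the log2 fold change and transcript length was 0.52, against 0.28 over all tested genes.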

How the data were processed

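An RNeasy Plus kit was used for total RNA and a NEBNext Ultra II kit for the libraries, per the labels' protocols. HISAT2 2.2.1, HTSeq 0.9.1 and hg38 are named in the submitters' processing notes. Not given in the sources used here are the release of the gene annotation, the strandedness used, any trimming and how multi-mapped reads were handled, so counts of genes that overlap others or have pseudogene copies are uncertain. The authors deposited raw counts per Ensembl gene, 1 table per library, without normalization. Totals were 20962083, 19126039 and 26879796 counts for vehicle and 28880374, 25066990 and 24646466 for the compound, so 1 count was worth 0.0346 to 0.0523 CPM.

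Symbols were matched to 60357 of 60676 IDs. Coordinates (1-based) and the length of the principal transcript came from GENCODE 29 on hg38. Genes were kept by filterByExpr (15577 genes, 99.9% of counts), scaled by TMM and compared by the two-sided quasi-likelihood F-test of edgeR 4.0.16 in R 4.3.3, 3 against 3 libraries with no covariate. Adjustment was by Benjamini-Hochberg over the whole table, and a gene was called at an adjusted p below 0.05. The SE was taken as the estimate over the root of the F statistic. The script was tested on simulated counts. Alternatives were DESeq2 1.42.0, limma-voom (limma 3.58.1), DESeq2 size factors, library totals alone, no count filter, a mean of at least 1 CPM, a replicate block, an adjusted p of 0.1, a promoter window of 100 bases before the start and each library left out in turn. A smooth trend on transcript length, taken out of each library, was added after the data were seen.

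The members and gene lists were chosen with earlier results of these data known, so no test was run over a list. Library values are given for the 4 members of smallest p in each phase, the 2 most and the 1 least abundant per kilobase, the largest rise and fall, members called in any setting, further genes called, and otherwise the 2 of smallest p in a further list. BUB3, MAD2L1, CDCA8 and INCENP were named, and library values of MCM3, CDC6, E2F1, UNG, TYMS, BUB1, BUB1B, CENPF, CCNA2, CDC25B and TPX2 were added, after their values were seen, to fill out the roles. PRC1, SPC25, NUSAP1 and KIFC1 were named after their values were seen, for their low counts.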

Additional observations from a re-analysis of the deposited data

How the results depend on the processing

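The count of genes called over the whole table was 294, and it was 713 with no count filter, 634 with the length offset and 466 at an adjusted p of 0.1. Leaving out 1 library gave 93 to 1806, the lowest without vehicle library 1 and the highest without vehicle library 3. Of the 20 G1/S members 0 were called in every setting except without vehicle library 3, so leaving out 1 library gave 0 to 2. Of the 26 G2/M members 0 were called by edgeR, while DESeq2, the length offset and an adjusted p of 0.1 each called 1, TTK, and no count filter called 2, TTK and CENPE. Leaving out 1 library gave 0 to 5 G2/M calls. Of the further genes 5 were called, 8 with the length offset and 2 to 36 with 1 library left out. E2F3 and WEE1 were the 2 that passed in each of the 4 settings that lacked vehicle library 1 or a compound library.

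The median log2 fold change of G1/S members ran from −0.027 to 0.021 with 1 library left out, that of G2/M members from 0.023 to 0.075 and their difference from 0.0016 to 0.10. In each case the value without vehicle library 2 moved by more than the spread between replicates. Of the 46 members, 26 kept their sign in every setting, as did 5 of 5 further genes. Signs turned with library totals alone for MCM2 −0.0015, MCM7 −0.0057, E2F1 −0.0026, CDC25C −0.0081, MKI67 −0.022. They turned with no count filter for MCM3 0.0075, MCM4 0.00044, CDC6 0.00021, AURKA 0.0045, and with the length offset for PCNA 0.044, CCNB1 0.0051, CCNB2 0.012, AURKA 0.022, AURKB 0.016, MKI67 −0.075, CENPF −0.012, UBE2C 0.013. With 1 library left out the log2 fold change spanned 0 in 18 members: MCM2 −0.012 to 0.052, MCM3 −0.027 to 0.0096, MCM4 −0.022 to 0.0013, MCM7 −0.018 to 0.051, PCNA −0.062 to 0.052, CDC6 −0.029 to 0.015, E2F1 −0.036 to 0.063, SLBP −0.14 to 0.023, FEN1 −0.072 to 0.022, CDC25C −0.033 to 0.096, AURKA −0.021 to 0.015, AURKB −0.12 to 0.030, BIRC5 −0.094 to 0.0066, MKI67 −0.18 to 0.12, CENPF −0.063 to 0.19, KIF11 −0.0017 to 0.15, KIF23 −0.0043 to 0.067, UBE2C −0.14 to 0.016. The causes of these changes were not tested.

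The replicate number was also used as a block. Same-numbered libraries of the groups did not deviate together (r of −0.070, 0.028 and −0.014 over genes), so the numbers were not taken to pair the samples. With the block 339 genes were called, 0 of them G1/S or G2/M members, and the 5 further genes were the same. With 3 libraries a group, the 95% interval reached past 1.2-fold in either direction for 11 of 46 members, so a change beyond that size stays possible for them. This count depends on where the estimate lay as well as on the width of the interval. The least abundant member per kilobase, CCNE2, still stood at 14.6 to 16.9 CPM.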

Other observations

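The promoter letters of the further cell cycle genes differed between lists, less for E2F than among the members. E2F letters stood in 20 of 41 promoters of other replication genes (48.8%) and in 13 of 44 of other spindle, kinetochore and cytokinesis genes (29.5%), against 14.8% of all tested genes. CHR letters stood in 3 of 41 (7.32%) and in 35 of 44 (79.5%) of the same lists, and in 7 of 15 condensin and cohesin promoters (46.7%), against 11.2% of all tested genes. In a narrower window of 100 bases before to 50 after the start, E2F letters stood in 11 of 17 G1/S promoters (64.7%) and 2 of 21 G2/M promoters (9.52%), and CHR letters in 0 and 10 (47.6%), against 7.85% and 4.44% of tested genes. These are descriptions of letters without a test.

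Of the 46 members, 12 have an exon that overlaps a gene on the opposite strand, among them TYMS, CCNA2, MCM7 and GINS2. RRM2, FEN1 and BUB1B overlap a gene on the same strand, and 13 members have a pseudogene named after them, among them PCNA, UBE2C, AURKA and MKI67. TTK, CENPE, TOP2A, E2F2 and CCNE1, the members with an unadjusted p below 0.05, have none of these. Among the further genes called, E2F8 and MASTL overlap a gene on the opposite strand (YME1L1 for MASTL), WEE1 overlaps a small RNA gene, and E2F3 has pseudogenes named after it, so their counts carry the same uncertainty. SPC24, the further gene that fell, was not checked for overlaps or pseudogenes.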
